A study of Arabidopsis thaliana with 11 samples.

Results

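Labeled transcripts of root cells that carried only the empty vector were measured on 5 ATH1 arrays (4tU-EV, biological replicates 1 to 5), out of 11 arrays in the series. They are described alone, across genes, on the deposited intensities and on log2 of them. All 5 hold RNA of protoplasts, cells freed of their walls, from roots of wild-type Columbia Col-0 seedlings grown on 1 mM KNO3. The cells were transfected with the plasmid pJD385_35S::GR, in which the viral 35S promoter drives the glucocorticoid receptor domain (GR) with no TF fused to it. Every culture first received KNO3 and NH4NO3, each at 20 mM, for 1 h and 40 min by the labels and for 2 h by the methods. Cycloheximide (35 µM) was then given for 20 min, dexamethasone (10 µM), the ligand that moves GR into the nucleus, for 5 h, and finally a pulse of 20 min with 4-thiouracil (4tU, 1.5 mM) and uracil (0.2 mM). Transfected cells were sorted by red fluorescence, so the arrays cover cells of the whole root that had taken up plasmid, after wall digestion, an overnight incubation and a block of protein synthesis. None of these steps has an untreated control among the 5 arrays, and their part in any level below was not tested.

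4tU enters the RNA made while it is present, through its conversion to a labeled UTP, and the thiol group lets biotin be attached so that labeled RNA can be pulled down on streptavidin beads. The labeled fraction is therefore meant to report transcripts made during the pulse rather than the whole pool of mRNA. No array holds a pull-down from cells without 4tU, so how much unlabeled RNA came with it was not tested. Cycloheximide stops translation, and transcripts of early stress genes are known to accumulate when translation is blocked. On the ATH1 array a gene is read by a probe set, and GCRMA turns its probes into an intensity on a linear scale. Probe sets differ in how brightly they hybridize, so the order of genes given here is an order of probe sets and not of transcript numbers.

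Of 22810 probe sets, 13513 are paired with exactly 1 gene by the platform's annotation, and these gave 13356 named genes, 1557 with a symbol and 11799 with a gene code only. Many well known root and stress genes carry no name there: of the 100 brightest probe sets that are not controls, 39 were named, against 59.4% of all probe sets other than controls. Named genes are thus a part of the bright transcripts, although the brightest of them was also the brightest of all probe sets other than controls. The median intensity of named genes was 6.86, and 2164 genes (16.2%) had a mean of 100 or more. Limits on a mean refer here to the mean of log2 turned back to intensity, and a mean ± SD to the linear values. At the other end, 2973 (22.3%) lay at the table's lowest value, 4.92, in all 5 arrays.

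The arrays did not agree equally well. Replicates 1 to 4 had median Pearson correlations with the other arrays of 0.970 to 0.979 over named genes, and replicate 5 had 0.953. Replicate 5 also had the fewest named genes at the lowest value, 3913 against 4355 to 4489 in the others, and the fewest at 100 or more, 2087 against 2226 to 2290. Among the 2781 named genes with a mean of 64 or more, 405 were lower in replicate 5 by more than 1 on the log2 scale than the median of the other arrays and 173 were higher. Over these genes, 1 pattern, replicate 5 against the rest, held 50.6% of the variation between arrays, and a contrast of replicate 4 with replicate 2 held 23.4%. The cause was not tested, and counts that rest on it are given below without it too.

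The label root protoplast could be checked on few genes, because only 31 of the 410 list members whose symbol and code could be matched have a named probe set. Of 13 markers of the root epidermis and root hairs, 2 had a named probe set, the hair-cell expansins EXPA7 and EXPA18. Both were at or within 1% of the lowest value in replicates 1 to 4, at 4.93 to 5.18 and 4.92 to 4.99 over all 5 arrays. LHW, a regulator of vascular cell number, read 7.96, 7.96, 10.4, 15.1 and 5.13 in replicates 1 to 5, and AUR1, a kinase of dividing cells, ranged over 4.93 to 5.38. No matched marker of the cortex and endodermis, the root cap, or flower, pollen and seed had a named probe set. This holds for matched markers only: over all lists, 9 members were left out as unmatched, and 8 of these have a named probe set. Nuclear genes of photosynthesis were near the lowest value, with RCA (Rubisco activase) at 5.33 to 7.51, PRK (phosphoribulokinase) at 5.01 to 7.04 and LHCB4.1 (a light-harvesting protein) at 8.93 to 10.6. A gene singled out after its values were seen, PYK10, the beta-glucosidase of the ER bodies of roots, read 1639, 1986, 2178, 1685 and 926, and NAI2, another protein of ER bodies, read 795, 968, 1117, 1043 and 1159.5. The 2 root-hair markers were thus at or near the lowest value, while PYK10 was bright in all 5 arrays and lowest in replicate 5.

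The brightest labeled transcripts included redox, calcium and zinc finger regulators, a dehydrin and a cell wall enzyme, beside genes whose product is not described in the annotation used here. GRX480 (AT1G28480), a glutaredoxin that links redox state and salicylic acid to the jasmonate response, was the brightest named gene. Its intensities in replicates 1 to 5 were 18054, 15748, 16484, 17999 and 18108, a mean of 17278.5 ± 1093 (SD, n = 5), lowest in replicate 2 and nearly equal in the other high arrays, 1, 4 and 5. AT1G19020, a protein of unknown function, followed with 16317, 14959, 16281, 14997 and 18812, a mean of 16273 ± 1566, and was highest in replicate 5. The third was AT1G53540, which has no entry in the annotation used here, so its role is not given. It read 12949, 15305, 14729.5, 13262 and 12803.5, and its order was the other way round, with replicate 5 lowest and replicate 2 highest. GRX480 was above AT1G19020 in replicates 1 to 4 and below it in replicate 5, so the arrays do not all give the same order. AT1G53540 was below GRX480 in every array, and above AT1G19020 in replicate 2 alone.

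The other genes with a symbol among the 20 brightest were STZ, CML37, COR47 and XTH18. STZ, the zinc finger repressor also called ZAT10, which is induced by salt, cold and wounding, read 10309.5, 9244, 9220.4, 9628 and 10646, a mean of 9809 ± 642 (SD, n = 5). CML37, a calmodulin-like calcium sensor, read 11307, 9528, 9543, 10129.9 and 9883, highest in replicate 1 and close to even in the other arrays. COR47, a dehydrin of cold and drought responses, read 13251.5, 11745, 12412, 11165 and 12033. XTH18, an enzyme that cuts and rejoins xyloglucan in the cell wall, ranged from 10030.4 in replicate 1 down to 7737 in replicate 5, with the remaining arrays between. Among the 20 brightest genes the highest array was 1.09 to 1.36 times the lowest.

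Annotated families filled much of the rest of the 20. AT2G17660, of the family of the immune regulator RIN4, read 11014, 10625, 9522, 9406 and 11848, with replicates 5 and 1 above the others. AT2G45820, a remorin, a protein of membrane nanodomains, read 11349, 9246, 9101, 8930.3 and 11171, and it too was higher in replicates 1 and 5, with no overlap with the remaining arrays. AT5G39580, a peroxidase, read 10296, 7756, 9132, 9019 and 10055, lowest in replicate 2. AT2G32150 and AT5G02230 are both annotated as hydrolases of the haloacid dehalogenase type, and their means were 8933 ± 652 and 7606 ± 457. AT5G52050, an efflux carrier of the MATE family with the synonym DTX50, ranged over 7088 to 8975, and AT3G19240, annotated as related to Vid27, over 6429 to 8720.0.

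The remaining genes had no description of function in the annotation used here. For AT2G38870 that annotation has no entry at all, which does not mean that its function is unknown. AT5G10695 had a mean of 11637 ± 426 and its arrays ranged over 11042 to 12075. AT1G56060 read 12164, 11558, 11755, 11680.1 and 9425, so 4 arrays were close together and replicate 5 was low. AT3G57450 (9207 ± 283), AT2G41730 (8608 ± 681), AT1G23710 (7985 ± 753) and AT2G38870 (9043 ± 459) complete the set. Of the 20 genes, 5 carry a symbol, and 1, AT2G41730, is read by a probe set whose suffix marks sequence shared with other transcripts. The limit of 20 is arbitrary: AT5G02230, the last inside, had a mean of 7606, and AT4G27280, an EF-hand calcium-binding protein just outside, had 7601. Over the 20, the SD of log2 ran up to 0.17, and leaving out any 1 array kept 18 to 20 of them.

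**Figure D1:**
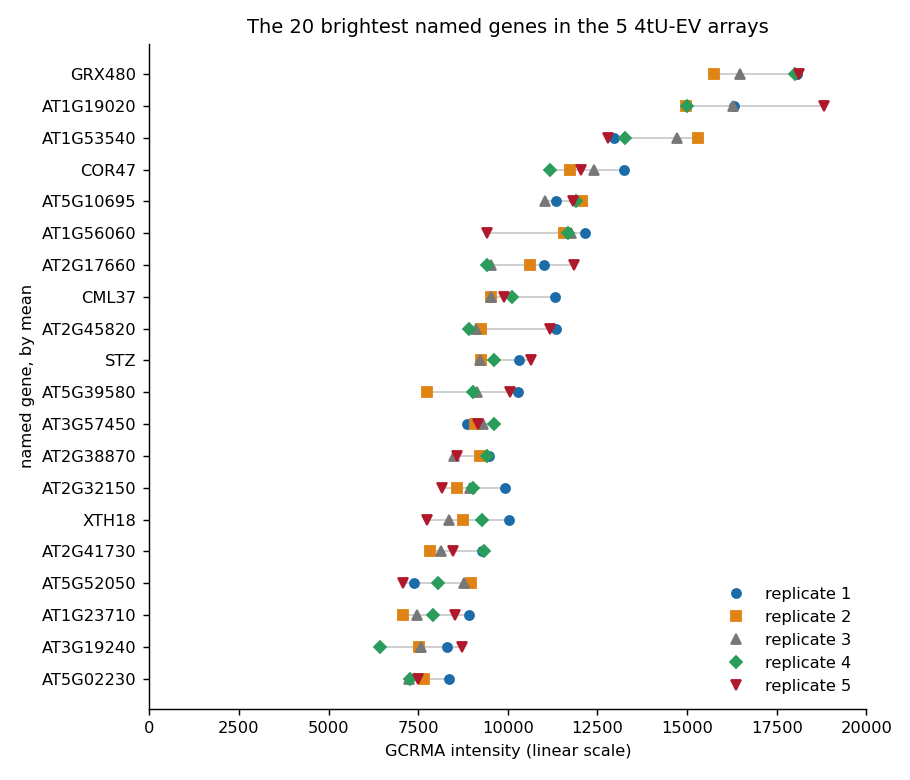
The 20 named genes with the highest mean log2 intensity, with the GCRMA intensity (linear scale, from 0) of each of the 5 4tU-EV arrays as 1 point and a gray line from the lowest to the highest. GRX480 and AT1G19020 stand to the right, and within each gene the 5 points lie close together (the highest is at most 1.36 times the lowest).

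Families were formed by the start of the symbol after the values had been seen, so a member with another symbol is missed, and their counts stand beside 16.2% of all named genes at 100 or more and 22.3% at the lowest value. Among 7 calmodulin-like genes, 3 had a mean of 100 or more: CML37, CML38 at 4996 ± 544 and CML23 at 1826 ± 83.7 (SD, n = 5), while CML42 ranged over 15.2 to 65.9 and CML43 over 4.92 to 6.79. Of 9 plant U-box ubiquitin ligases, PUB23 and PUB22, related regulators that dampen immune signaling, were at 5610.1 ± 344 and 4377 ± 314, with PUB19 at 726 ± 125 and PUB24 at 442 ± 55.0. The same family had 1 gene, PUB15, at the lowest value in every array. Among cell wall enzymes XTH19 had a mean of 2779 ± 491, whereas XTH16, XTH21 and XTH32 were at the lowest value in all 5 arrays, so 2 of 9 genes of this family were at 100 or more and 3 of 9 at the bottom.

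Transcription factors showed the same split within families. WRKY6 read 3499.9, 3851, 3439, 2779 and 3477 and WRKY53 3814, 2633, 3554, 3219.6 and 3098, both factors of senescence and defense, and WRKY22, a factor of the immune response, had a mean of 1533 ± 157. WRKY47 was far dimmer, at 135 ± 26.4, and WRKY42 was at the lowest value in 4 of the arrays and at 5.60 in replicate 5. All 6 named WRKY genes are covered by these and WRKY20 (63.2 ± 24.5), and 4 of the 6 had a mean of 100 or more. Of 14 bZIP genes, BZIP60, a factor of the unfolded protein response, read 3671, 3135, 3046, 3713 and 1728, lowest in replicate 5. BZIP53, a group S1 factor that pairs with group C factors under low energy, read 2501, 2350.2, 2508, 2348 and 2045, and bZIP44, of the same group, ranged over 106 to 180.4. BZIP28, an ER membrane factor, had a mean of 289.7 ± 39.9, and BZIP34, bZIP42 and bZIP48 were at the lowest value in every array.

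Enzymes of conjugation and defense chemistry were mixed. Of 20 beta-glucosidases with a BGLU symbol, which leaves out PYK10 and ATA27 (BGLU20), 10 had a mean of 100 or more, led by BGLU46 at 5130.2 ± 459.9 and BGLU27 at 3176 ± 293, and BGLU19, BGLU43 and BGLU44 were at the lowest value throughout. Of 14 glutathione S-transferases, GSTU22 was brightest at 1929 ± 349, GSTU25 read 1236, 889, 906, 1192 and 865, and GSTF4, GSTU15, GSTU21 and GSTU23 lay at the bottom in all arrays. UDP-glycosyltransferases, the largest family with 47 named genes, had 9 at 100 or more (19.1%), a share near that of all named genes, with UGT87A2 at 1577 ± 190.2. Among 24 cytochrome P450 genes, most of them of the CYP71B branch, CYP71B6 alone passed 100, at 396 to 723, and 11 were at the lowest value in all 5 arrays.

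Of the gene lists formed with earlier results of these data known, the early stress and wound regulators were the brightest. The 3 of its 32 members with a named probe set, ZAT10, WRKY6 and WRKY53, all had a mean of 100 or more, and the dimmest of them, WRKY53, had 3264 ± 451 against a median of 6.86 over all named genes. Early auxin response had 5 of 18 members named, of which 4 passed 100. GH3.3, an enzyme that conjugates auxin to amino acids, read 1604, 789, 1067, 1463 and 1405, GH3.1 ranged over 181 to 411 and GH3.5 (WES1) over 72.6 to 269.8. LBD16, a factor of lateral root initiation, ranged over 77.8 to 268, while LBD29, from the same family, ranged over 6.91 to 12.1. The GH3 genes were lowest in replicate 2, and LBD16 was highest there.

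Heat shock and ER chaperones had 2 of 18 matched members named, HSP70-2 (Hsp70-2) at 1014 ± 173 and the small ER heat shock protein HSP22.0 (ATHSP22.0) at 840.3 ± 236. EIN3, the central factor of ethylene signaling, read 488, 516, 506, 159 and 999.8, with replicates 1 to 3 close together, replicate 4 lowest and replicate 5 highest. The dehydration list split in its 2 named members, COR47 near the top and COR15A, a chloroplast cold protein, at 5.19 to 6.39. PDF1.2, a defensin, was at the lowest value in replicates 1 to 4 and at 5.18 in replicate 5. EFR, the receptor for bacterial elongation factor, ranged over 19.3 to 60.7, highest in replicate 5. PDC2, a pyruvate decarboxylase, was the 1 list member with an SD of log2 over 1, reading 23.7, 177, 42.7, 60.7 and 7.56.

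Of 22 matched reference and cytoskeleton genes 4 were named, and 1 of them, GAPC2, had a mean of 100 or more. GAPC2, a cytosolic glycolytic dehydrogenase, read 761, 852, 874, 776 and 594, UBC21, a ubiquitin conjugase used as a reference gene, 115, 94.9, 139.6, 46.5 and 81.6, and the tubulins TUA6 and TUB6 had means of 59.1 ± 34.7 and 20.6 ± 13.8. Both tubulins were highest in replicate 5 and lowest in replicate 1. Other tubulin and actin genes, TUB1, TUB5, ACT11 and ACT12, picked after the values were seen, were at the lowest value in all 5 arrays. The actins of the list, ACT2, ACT7 and ACT8, were not among the 4 named genes, so nothing follows for actin transcripts in general. GI, a clock gene, ranged over 51.5 to 108. Over all 26 lists, 15 of the 31 matched members with a named probe set had a mean of 100 or more, beside 16.2% of all named genes. In 11 lists no matched member had a named probe set, so these lists were not described. Among them were nitrate assimilation, jasmonate, aquaporins, cytosolic ribosomal proteins (21 of 23 members matched), and RNA polymerase II with splicing. It does not follow that no gene of these kinds was read.

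Genes at the lowest value in all 5 arrays were spread over the genome, from 19.6% of the named genes of chromosome 5 to 27.6% of those of chromosome 2. A value at the floor says that the probe set was not read above it, not that the gene was silent. CLE signaling peptides had 3 of 6 members there and RALF-like peptides 4 of 11. The RALF-like genes at the bottom were RALFL25, RALFL26, RALFL27 and RALFL28, while RALFL33 and RALFL22 ranged over 227 to 1088 and 442 to 699.9.

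Individual names at the lowest value, picked after the list was seen, included CLV3, the peptide of the shoot stem cell niche, UFO and SPL, which act in flower and sporangium formation, and FMA (FAMA) and STOMAGEN, which act in stomata. The egg-cell genes EC1.2 and EC1.5, the male gamete histone MGH3 and the meiotic genes SPO11-2 and RCK were there too. So were PORB and SBPASE, enzymes of chlorophyll synthesis and of the Calvin cycle, the thionins THI2.1 and THI2.2, the jasmonate methyltransferase JMT, and NRT2.5, a high-affinity nitrate transporter. PUCHI, a factor of lateral root primordia, and SKU5, a protein of root growth direction, belong to root tissue and lay at the bottom as well. In all, 244 of the 1557 genes with a symbol (15.7%) were at the lowest value in every array, against 23.1% of those with a code only.

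How many genes are called lowest depends on replicate 5. A further 1235 named genes were at the lowest value in exactly 4 arrays, and in 618 of these replicate 5 was the array above it. Leaving out replicate 5 raised the count from 2973 to 3588, whereas leaving out another array gave 3088 to 3218. In addition, 260 genes had 1 identical value in all 5 arrays that was not the table's lowest, and 3586 lay within 1% of the lowest value. Identical values above the lowest also occurred between pairs of arrays, in 10.2 to 12.6% of the named genes above it in both, and at bright levels too: cox2, of the mitochondrial cytochrome oxidase, read 307, 212, 301, 307 and 307. The cause was not tested.

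Pseudogenes were mostly at the lowest value. Of 923 pseudogenes 64.8% were at the lowest value in all 5 arrays, against 19.1% of 12263 protein-coding genes of the nucleus, and 8 pseudogenes had a mean of 100 or more. Of these 8, 6 are read by probe sets with a suffix for sequence shared with other transcripts, and another, AT5G35880, rests on replicate 5, with 124, 55.4, 48.7, 58.0 and 546. Transcribed pseudogenes, which RefSeq marks as having RNA evidence, lay between, with 37.3% of 75 at the bottom. The brightest pseudogene, AT5G28430, read 463, 481, 472, 648 and 566, and is 1 of the 6. AT4G22020 (461 ± 85.9) and AT3G17110 (353 ± 25.6) are transcribed pseudogenes read by probe sets without such a suffix. No test was run between these classes, since the genes of a class are not replicates.

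**Figure D2:**
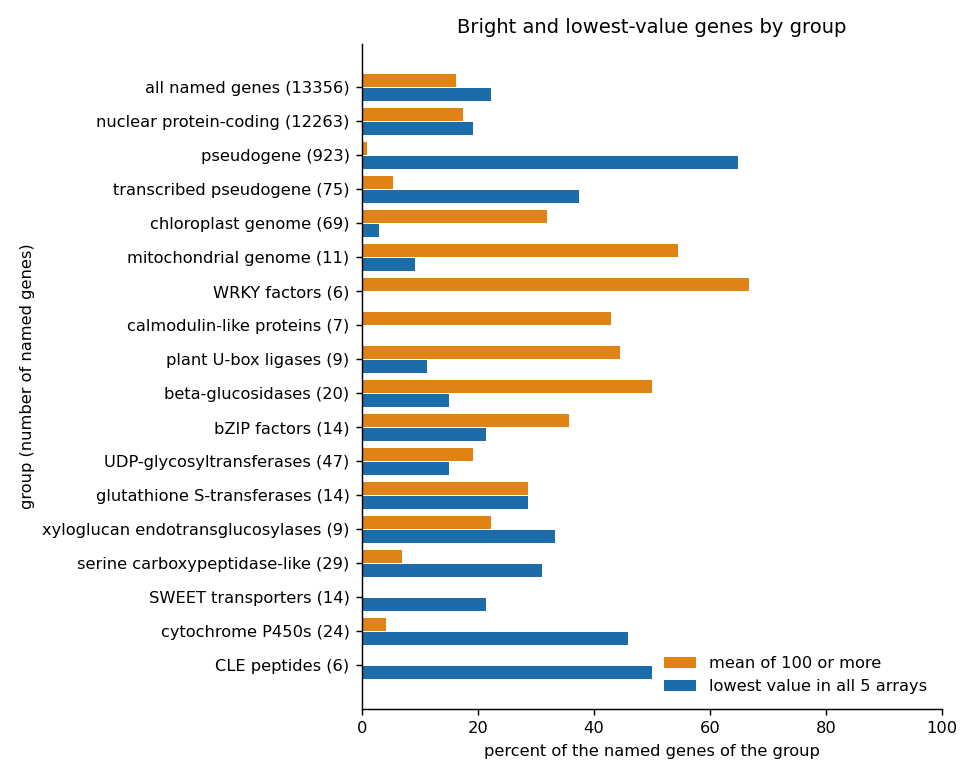
Share of named genes with a mean intensity of 100 or more (orange) and at the lowest value in all 5 4tU-EV arrays (blue), in percent of each group, with the number of named genes in brackets. Pseudogenes are mostly at the lowest value (64.8%), genes of the chloroplast genome rarely are (2.90%), and 45.8% of the cytochrome P450 genes are.

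Transcripts of the organelle genomes were present in the labeled fraction. Of 69 named genes of the chloroplast genome, 22 had a mean of 100 or more, the median intensity was 37.4, and 2, ndhF and psbT, were at the lowest value throughout. The brightest was clpP, a protease subunit, with 941, 835, 707, 577 and 1046, followed, in the order of mean log2, by ycf3 with a linear mean of 673 ± 141 and psbF, of photosystem II, with 627, 713, 791, 319 and 1038. The large subunit of Rubisco, rbcL, read 303, 181, 271, 453 and 305, and psbA, the D1 protein of photosystem II, 79.8, 66.9, 55.1, 95.0 and 62.2. In rbcL replicate 4 was highest, whereas clpP and psbF were lowest there and highest in replicate 5.

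Among the chloroplast genes replicate 4 was the lowest array in 29 of the 64 genes with a single lowest array, and replicates 1 and 5 were the highest in 28 and 24 of the 66 with a single highest array. Over the named genes with a mean of 64 or more the same counts were 607 of 2728 for replicate 4, and 819 and 561 of 2766 for replicates 1 and 5. The ribosomal protein gene rpl36 read 371, 171, 157, 72.3 and 535, and atpH, a subunit of the ATP synthase, 329, 309.7, 304, 254 and 65.8, low in replicate 5 alone. In the mitochondrial genome, nad5, of respiratory complex I, read 2618, 1981, 2466, 1783 and 1199, nad1 1083, 809.7, 728, 885 and 954 and cox1, of cytochrome oxidase, 872, 674, 853, 724 and 1308. Thus nad5 was lowest and cox1 highest in replicate 5. The probe set of nad5 has a suffix that marks sequence shared with other transcripts. Of 11 named mitochondrial genes 6 had a mean of 100 or more, and nad7 was at the lowest value in all arrays. How far these transcripts were labeled in the organelles was not tested.

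Spread between arrays depended on brightness. The median SD of log2 over all named genes was 0.195, and 0.126 without replicate 5. Genes at the floor, whose SD is 0 or close to it, enter this median. It was 0.52 for genes with a mean of 16 to 32, fell through 0.47 for a mean log2 of 6 to 7 and 0.35 for 9 to 10, and was 0.14 for the 72 genes with a mean log2 of 12 or more. An SD over 1 was found in 480 genes (3.59%), of which 354 had a mean below 64, and in none of the 72 brightest. Among the 2177 genes at 64 or more in every array, 43 had an SD over 1 and the median SD was 0.35.

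**Figure D3:**
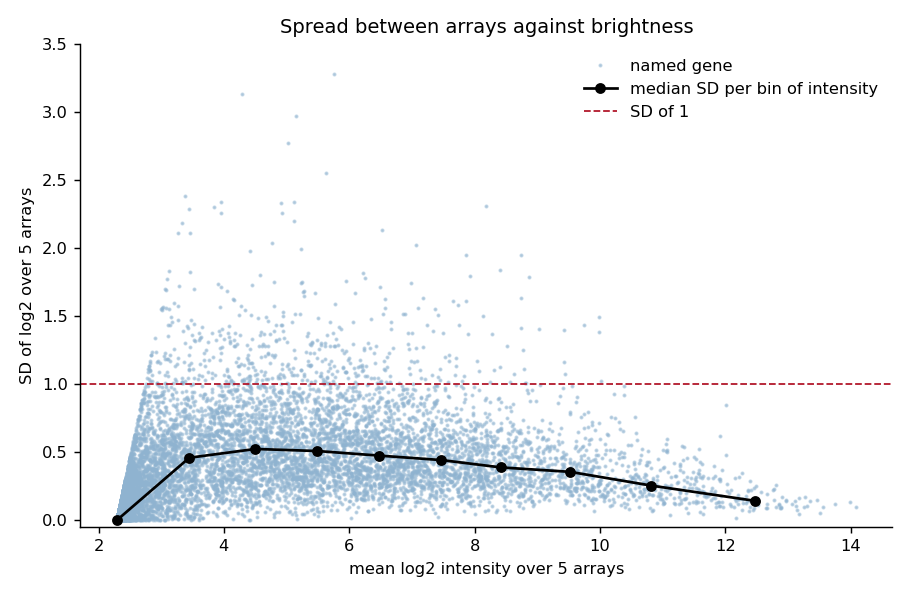
SD of log2 intensity over the 5 4tU-EV arrays against mean log2 intensity, 1 point per named gene, with the median SD of each bin of intensity in black and an SD of 1 as a dashed line. The median rises from near 0 at the floor to 0.52 at a mean of 16 to 32 and falls to 0.14 among the brightest genes.

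The most variable genes were high in 1 array and low in the remaining ones. AT3G24450 had the highest SD of log2, 3.28, and read 26.8, 30.4, 25.4, 2799 and 7.87: replicate 4 was 356 times replicate 5. AT1G50575 read 5.06, 796, 5.93, 24.0 and 5.06, high in replicate 2 alone. In AT5G21020 (19.2, 20.0, 17.7, 1272 and 6.44) and AT3G22800 (13.6, 17.8, 16.7, 969 and 9.03) replicate 4 again stood apart. AT4G16100 (11.9 to 1000.6) and AT3G08680 (20.5, 592, 17.1, 24.7 and 9.94) were high in replicate 2. Replicate 5 was the high array of AT3G05620, with 4.95, 4.99, 4.95, 4.95 and 200.1, and of AT5G14690, with 6.75, 7.97, 6.72, 6.78 and 247.

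Over the 12 most variable genes, replicate 4 was the high array in 6, replicate 2 in 4 and replicate 5 in 2. The others were AT2G28680 (4.92 to 252), AT3G53040 (10.8 to 531) and AT2G25300 (5.29 to 185), high in replicate 4, and AT1G66460, which read 143, 5017, 119, 138 and 174 and so was well above the floor in all arrays. None of the 12 carries a symbol. The last inside, AT2G25300, had an SD of 2.28, and the next, AT2G43210, of 2.26. In 10 of the 12 the gap of the high array to the next was more than 0.71 of the whole range, the limit of Dixon's rule for 5 values. The 12 were picked for their spread, so this count only describes them and is not comparable with chance. Of all 480 genes with an SD over 1, 199 passed the same limit, with the outer array high or low. Since 1 array makes each value, the list changes with the arrays used: 6 to 11 of the 12 stayed when an array was left out, fewest without replicate 4, and 1 stayed when genes were ordered by the median absolute deviation.

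**Figure D4:**
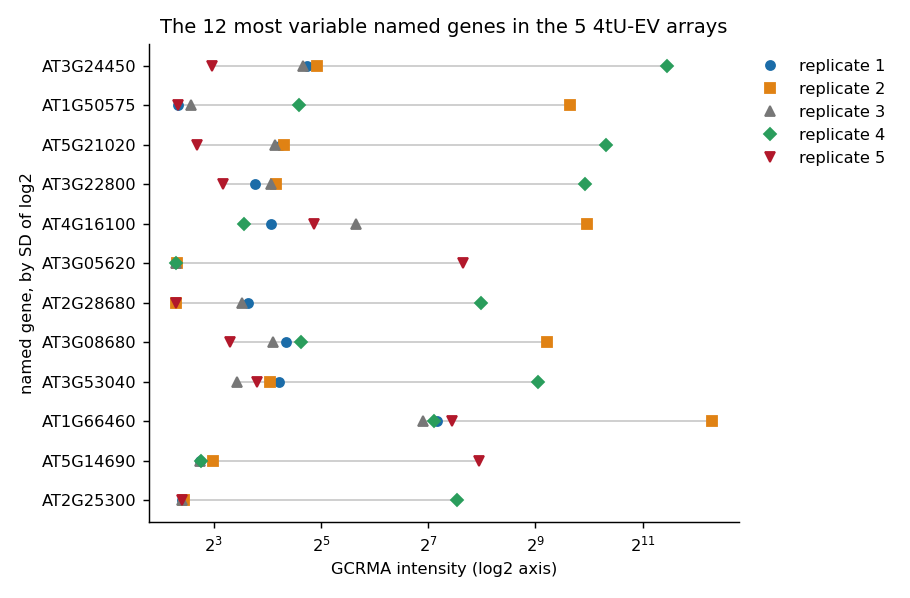
Intensity on a log2 axis of the 12 named genes with the highest SD of log2, 1 point per 4tU-EV array, with a gray line from the lowest to the highest. In every gene a single array, replicate 4 in 6 of them, replicate 2 in 4 and replicate 5 in 2, lies to the right of the others.

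Among genes at 64 or more in every array, the same arrays made the spread. AT5G16060 read 66.6, 621, 77.7, 1454 and 148, so replicates 4 and 2 were both high. AT1G27400 read 112, 351, 236, 4076 and 385 and AT2G45990 254, 226, 275, 2935 and 98.4, high in replicate 4. AGL18, a MADS-box factor that delays flowering, read 184, 155, 162, 1614 and 91.8, and was the 1 gene with a symbol in this set. AT5G63905 (946, 6062, 709, 448 and 586) and AT5G57910 (618, 5024, 645, 506 and 463) were high in replicate 2. AT4G22212 was the exception, with 395, 735, 756, 801 and 79.9: it was low in replicate 5 and high in none.

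The remaining genes of that set repeated these patterns. AT1G73480 reached 3129.7 in replicate 4 and ranged over 202 to 349 in the other arrays. AT1G21790 reached 1431 in replicate 4 and ranged over 99.9 to 173 in the others. AT5G35530 was 2512 in replicate 2 and 171 in replicate 5, and AT3G06680 was high in both, at 521 and 737, with the lowest array at 78.6. In 6 of the 12 genes of this set the outer array was past the limit of 0.71. These genes too were picked for their spread, so the count describes them and is not a test.

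Genes with a symbol and an SD over 1 numbered 53. Chosen after their values were seen, ASF1B, a histone chaperone, was at 202 in replicate 2 and 23.2 in replicate 5, the next highest, and HYH, a light-signaling bZIP factor, 59.3, 640.4, 121, 65.8 and 408, both high in replicate 2. MOL1, a receptor-like kinase of the cambium, was at 151 in replicate 5 and 5.06 in the lowest array, and also high in replicate 5 alone was RAD51B, a recombination protein, with 4.92, 4.92, 4.92, 4.92 and 39.0. SIM, an inhibitor of the mitotic cycle, read 169.9, 107, 117, 124 and 13.4 and SKP2A, an F-box protein of the cell cycle, 178, 149, 198, 275 and 29.1, both low in replicate 5. NAI1, the factor that controls ER body formation, was high in replicate 4, with 75.9, 94.9, 135, 455 and 66.9.

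Over all 480 genes with an SD over 1, the array farthest from the others was high in 324 and low in 156. Replicate 5 was high in 141 and low in 123, replicate 2 high in 82 and low in 2, and replicate 4 high in 73 and low in 26. Replicates 1 and 3 were high in 15 and 13 and low in 3 and 2. Without replicate 5 the number with an SD over 1 was 244, and without any other array it was 499 to 692.

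The least variable genes with a mean log2 of 8 or more included several of the bright ones. AT5G12340, of unknown function, read 4673, 4556, 4564, 4561 and 4530.3, an SD of log2 of 0.02, with replicate 1 slightly above the others. AT1G11670, a MATE efflux protein, read 2250.3, 2142, 2158, 2273 and 2218, and AT3G02080 248, 252, 265, 260.1 and 265. AT5G05600, a 2-oxoglutarate-dependent oxygenase, had a mean of 3203 ± 105, and AT3G19030 of 2707 ± 97.3. AT3G57450 belongs to both the brightest and the steadiest genes, at 8853, 9087, 9311, 9617 and 9169.

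Genes bound by bZIP1, the TF absent from these cells as a transgene, were frequent among the bright transcripts. The comparison uses the gene lists of the ChIP-Seq experiments (sequencing of chromatin pulled down with bZIP1), made in other cells that expressed it in a first experiment and in a replication. Of the first list 347 genes are named here, and of the second 167. In the first list 18 of the 20 brightest named genes occurred, among them GRX480, STZ, CML37, COR47 and XTH18. The other 2 were AT1G53540 and AT2G38870. It held 72 of the 100 brightest, 41 of the next 100, 63 of the 300 after those and 0.491% of the ranks after 5000, against 347 of all 13356 named genes.

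The second list gave the same order at lower shares, with 47 of the 100 brightest and 1.25% of all named genes. Median intensity was 794 for named genes of the first list, 1445 for those of the second and 6.56 for genes outside the first, and 10 genes of the first list (2.88%) and 0 of the second were at the lowest value in all 5 arrays. Leaving out any 1 array kept 70 to 72 genes of the first list among the 100 brightest. Binding here is a property of cells that were not on these arrays, and what sets either quantity was not tested.

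**Figure D5:**
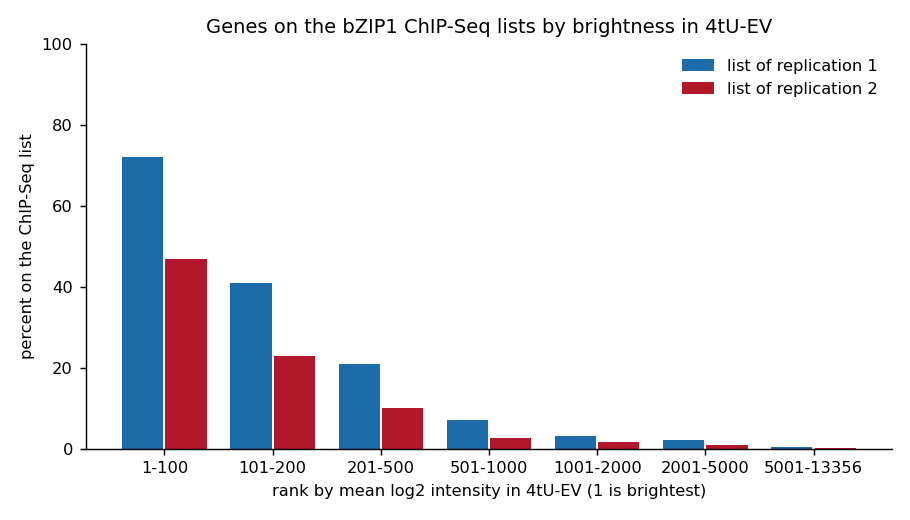
Percent of named genes on the bZIP1 ChIP-Seq lists (blue, first experiment; red, replication), by rank of mean log2 intensity in the 5 4tU-EV arrays, with rank 1 the brightest. The share of the first list falls from 72.0% in the first 100 ranks to 0.491% after rank 5000.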

How the data were processed

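The authors converted the pulled-down RNA to cDNA, amplified, labeled and hybridized it, and normalized the probe intensities with the GCRMA package of Bioconductor. As deposited, every array has 1 intensity on a linear scale for each of its 22810 probe sets. The 5 4tU-EV columns were read, log2 was taken of the values as they stand, without a pseudocount. Probe sets paired with several genes (503) and those the platform annotation does not list (8794, of which 64 are controls) were left out. Of 13513 probe sets with 1 gene, 13436 were matched to RefSeq by gene ID, 48 by locus tag and 18 by organelle symbol, and 11 kept the platform's name. For each gene the probe set with the highest mean log2 was taken. No depth exists for arrays, and the 5 arrays limit the precision. With 1 group there is no test and no p-value.

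The members, gene lists and rules were chosen with earlier results of these data known. Named genes are the 20 with the highest mean log2, the 12 with the highest SD of log2, the 12 with the highest SD among those at 64 or more in every array, the 6 with the lowest SD among those with a mean log2 of 8 or more, and, for each list, up to 5 members with the highest mean, up to 3 with the highest SD and those at the lowest value in all arrays. Others are named as chosen afterwards. Of 419 list members, 9 whose symbol could not be matched to their code were left out, although 8 of these have a named probe set. Roles of genes with a code only come from the annotation that accompanies the ChIP-Seq gene lists. A gene with a code only and no entry there is given no role, whether or not its function is known. Python 3.11.15 with numpy 2.4.6, pandas 2.3.3, scipy 1.17.1 and matplotlib 3.10.9 was used. The ranking and counting code of the alternative runs was tried on simulated data of 13356 genes, where 20 of 20 bright and 1000 of 1000 flat genes were recovered. These genes were set clearly apart from the rest by construction. The trial therefore checks only that the code runs correctly, not how well close values are ordered. Alternatives were each array left out, all probe sets with 1 gene, centring, quantile normalization, a floor of 16, other measures of brightness and spread, a minimum mean of 32, and looser definitions of the lowest value. Added after the data were seen were leaving out probe sets of shared sequence and, for the lists and bound genes, each array left out. No column of another series was present. Results on 1 gene family are not reported here.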

Additional observations from a re-analysis of the deposited data

Results flagged for a closer look

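In the 5 4tU-EV arrays, a value was taken up here where the gap of the highest or lowest array to its neighbor was more than 0.71 of the whole range. With 5 values, chance alone passes this limit in about 1 in 20 groups. Of 77 genes looked at, 23 passed, and many of these had been picked for their spread, so that count is not comparable with chance. No explanation was tested for any of them.

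The number of named genes at the lowest value per array had a share of 0.767, because replicate 5 had fewer than the others. Replicate 5 was also the array apart and low in AT1G56060 (0.800). It was apart and high in AT3G05620 (0.998) and AT5G14690 (0.953), and, within a range close to the lowest value, in PDF1.2 (1), EXPA7 (1) and EXPA18 (0.948).

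Replicate 4 was the array apart, and high, in AT3G24450 (0.770), AT5G21020 (0.786), AT3G22800 (0.854), AT2G28680 (0.762), AT3G53040 (0.859), AT2G25300 (0.991), AT1G73480 (0.800), AT1G21790 (0.793) and AGL18 (0.758). The photosynthesis genes LHCB4.1 (0.797) and PRK (0.932) were also highest in replicate 4, at intensities near the lowest value. Replicate 2 was apart and high in AT3G08680 (0.777), AT1G66460 (0.899), AT5G63905 (0.713) and AT5G57910 (0.861).

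Replicate 1 was apart in AT5G12340 (0.759), whose 5 values nevertheless lie within a narrow range since it is the steadiest bright gene. Replicate 3 was apart in AUR1 (1), where the other arrays share 1 value.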

How the results depend on the processing

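The 20 brightest genes, the count at the lowest value and the count of list members at 100 or more stayed within 1.5 times their value under every alternative run. Counts of spread did not. The number with an SD over 1, 480 in all, ranged from 244 to 692 when 1 array was left out, was 277 with values under 16 raised to 16, and was 230 among genes with a mean of 32 or more. Of the 12 most variable genes, 6 to 11 were kept when 1 array was left out, 1 with the median absolute deviation, and 6 with a mean of 32 or more. The median SD, 0.195, ranged from 0.126 to 0.186 without 1 array, was 0 with the floor of 16, and was 0.423 at a mean of 32 or more. The floor and the minimum mean act on dim genes by construction. Bound genes among the 100 brightest numbered 70 to 72 without 1 array, 47 on the second list and 43 on both. The level of the most variable genes moved with the array that was high: the mean log2 of AT3G24450 was 5.75, and 4.33 without replicate 4, and that of AT1G66460 was 8.18, and 7.15 without replicate 2. No paired analysis was possible because only 1 group was described. Dim genes, whose values lie at or near the floor, limit what can be said of spread and of absence.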

Other observations

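Several groups of named genes belong to no comparison above. Histones, 6 named genes, had 4 with a mean of 100 or more. HTB4, a histone H2B, was brightest at 986 ± 113 (SD, n = 5), and HIS1-3, a linker histone known from drought, read 154, 149, 145, 193 and 404, highest in replicate 5. The centromeric histone HTR12 ranged over 5.00 to 6.15, close to the lowest value. Of 3 peroxidases with a symbol, PRX52 read 3229, 3403, 3536, 2997 and 3075 and Prx37 had a mean of 281. RPN12a, the 1 named proteasome subunit, had a mean of 341 ± 82.9, and no ethylene response factor with such a symbol was named.

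Groups formed by the start of the symbol after the values had been seen were mixed, and are set beside 16.2% of all named genes at 100 or more and 22.3% at the lowest value. Of 12 ubiquitin conjugases 5 had a mean of 100 or more and 1 was at the lowest value in all 5 arrays. Of 29 serine carboxypeptidase-like genes 2 were at 100 or more and 9 at the lowest value, and of 22 TBL genes, which include acetyltransferases of wall polymers, 1 and 6. Among 10 expansins EXPA4 alone passed 100, with 430.3, 487, 619, 756 and 934, lowest in replicate 1 and highest in replicate 5. None of 7 AUX/IAA repressors and none of 8 glutamate receptors did. IAA30 was the brightest of the former, with 109, 65.4, 73.5, 121 and 41.2.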
